A study of Mus musculus with 8 samples.

Results

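Chemokine ligand and receptor genes were taken from the authors' gene table by name, as every locus with a symbol made of Ccl, Cxcl, Cx3cl, Xcl, Ccr, Cxcr, Cx3cr or Xcr and a number. These were 60 of 23100 loci, carrying 56 distinct symbols. There were 41 ligand loci, of the CC (26), CXC (13), CX3C (1) and XC (1) families, and 19 receptor loci, of the CC (10), CXC (7), CX3C (1) and XC (1) families. Names outside this pattern, such as Pf4 and the atypical receptors still listed as Darc, Ccbp2 and Ccrl1, were not members and were counted as a separate list.

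RNA was sequenced from 8 samples of cardiac ventricle, with the atria removed, from mice aged 4.5 months. The 4 double knockout (DKO) samples were Sox5fl/fl, Sox6fl/fl and aMHC-Cre positive, and the 4 control (Ctrl) samples were Sox5fl/fl, Sox6fl/fl and aMHC-Cre negative. Sox5 and Sox6, which encode transcription factors, were thus floxed in both groups, which differed in a Cre recombinase driven by the cardiomyocyte promoter aMHC, so deletion and presence of Cre cannot be told apart. The series title speaks of pressure overload, but the sample labels give no operation. Sox6 stood at 1.69 FPKM in DKO and 3.39 FPKM in Ctrl ventricles and was called lower (q = 0.00158 in the authors' deposited table), while Sox5, at 0.497 FPKM in DKO and 0.369 FPKM in Ctrl ventricles, was not tested. FPKM is a level in sequenced fragments scaled to transcript length and library size. The authors deposited 1 value per genotype for each gene, with no value per sample, so no level or ratio below has an error of its own, the depth is unknown, and whether a difference exceeds the spread between samples rests on the authors' Cuffdiff test. The labels number the replicates without saying that each came from a separate mouse, so the p-values measure the spread between these samples.

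Chemokines are small secreted proteins that bind G protein-coupled receptors on leukocytes and steer their migration along a gradient held on glycosaminoglycans of vessels and matrix. Inflammatory chemokines are made on demand and draw monocytes, T cells or granulocytes out of the blood, whereas homeostatic ones act in the resting tissue. In the heart, Ccr2 marks monocytes and the macrophages that derive from them, and Cxcl12 with its receptors Cxcr4 and Cxcr7 acts in vessels and progenitor cells.

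Of the 60 loci, 25 had enough signal for the authors' test, 20 ligands and 5 receptors. Of these 25, 8 were called higher in DKO ventricles, 0 were called lower and 17 were not called, where a call means that the authors' deposited table lists q at or below 0.05. The called genes included the ligands Ccl2, Ccl6, Ccl8, Ccl9 and Cx3cl1 and the receptors Ccr2 and Cx3cr1. On mm9, Ccl2 lies at chr11:81849079-81850954, Ccl8 at chr11:81928687-81930301, Ccl9 at chr11:83386419-83392138 and Cx3cl1 at chr8:97296080-97306326. Ccl6 is listed at chr11:83395563-83437195, a span it shares with E230016K23Rik. Ccr2 lies at chr9:124016922-124023879 and Cx3cr1 at chr9:119957811-119977400. Of all 12133 tested loci, 4.3% were called higher and 3.06% lower. The share called higher was 32% of tested chemokine genes, 25% of the ligands and 60% of the receptors. The unadjusted p was below 0.05 for 11 of the 25. The ratio of DKO over Ctrl was above 1 for 22 of 25 tested chemokine genes (88%), beside 48.9% of all tested loci, and the median log2 ratio was 0.41 beside -0.0042. The fold of the 8 called genes ran between 1.35 and 3.18 with a median of 1.60, and the median fold of all genes called higher was 1.49. In whole ventricle RNA, more cells of a type and more RNA per cell cannot be told apart.

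**Figure D1:**
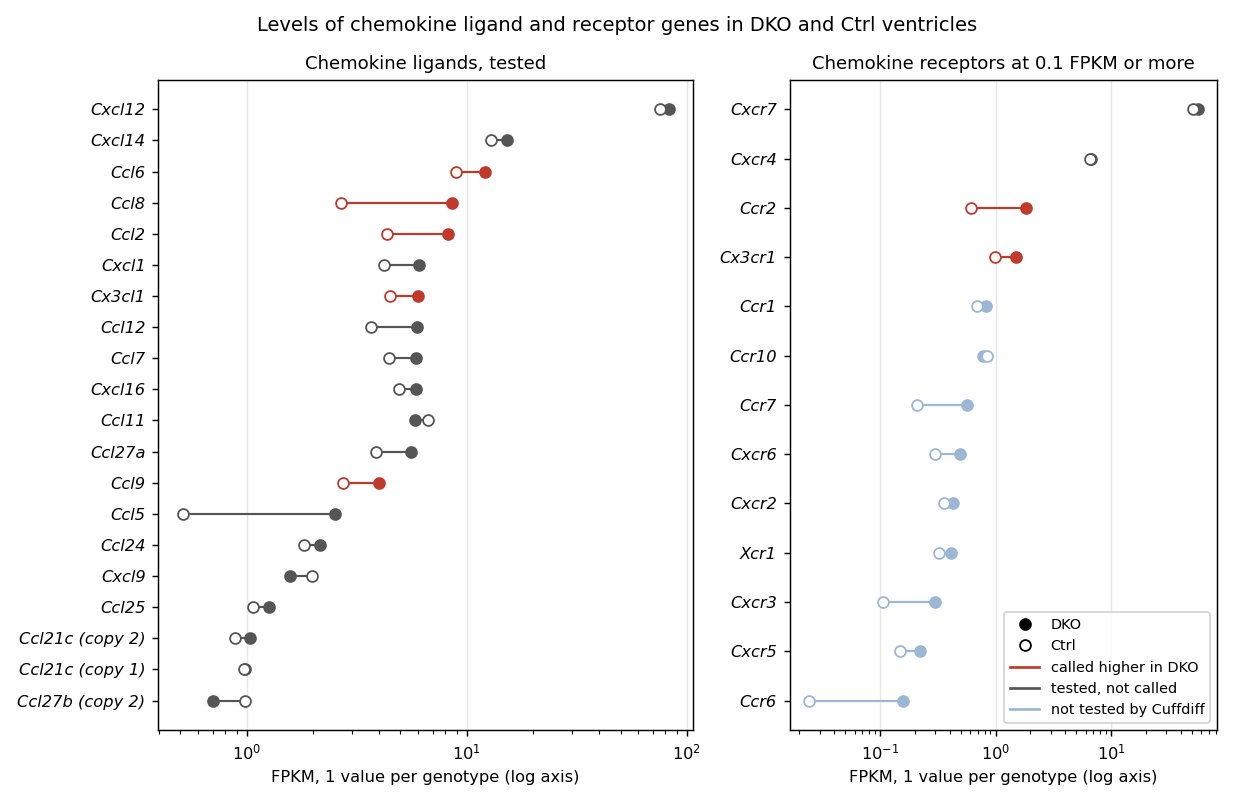
Levels of the 20 tested chemokine ligand loci (left) and of 13 receptors at 0.1 FPKM or more (right) in DKO (filled) and Ctrl (open) ventricles, in FPKM on a log axis, with 1 pooled value per genotype and so no error bar. The 7 called genes drawn are in red, with Ccl8, Ccl2 and Ccr2 showing the widest gaps among them, while Cxcl12 and Cxcr7 stand far above the other genes with nearly equal values.

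The monocyte chemoattractants, CC ligands that bind Ccr2 or related receptors, held the largest called change. Ccl8, monocyte chemoattractant protein 2, stood at 8.56 FPKM in DKO and 2.70 FPKM in Ctrl ventricles, a 3.18-fold difference (q = 0.00158 in the authors' deposited table). By fold it ranked 32 among all tested loci. Ccl2, monocyte chemoattractant protein 1 and a main ligand of Ccr2, stood at 8.23 FPKM in DKO and 4.32 FPKM in Ctrl ventricles, 1.90-fold higher (q = 0.00158 in the authors' deposited table). These ligands are made by macrophages, fibroblasts and vessel cells, among others. Ccl12, a Ccr2 ligand of the mouse, stood at 5.92 FPKM in DKO and 3.68 FPKM in Ctrl ventricles, a ratio of 1.61 that was not called (p = 0.0183, q = 0.156 in the authors' deposited table). Ccl7, monocyte chemoattractant protein 3, stood at 5.90 FPKM in DKO and 4.44 FPKM in Ctrl ventricles, a ratio of 1.33 (q = 0.339 in the authors' deposited table). Thus 2 of these 4 ligands were called, and all 4 had the higher value in DKO ventricles.

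The promoters of the neighbouring genes Ccl8 and Ccl12 are shown because these ligands lie side by side on chromosome 11, and only Ccl8 was called. Both sequences are from RefSeq on GRCm38.p6, plus strand, at chr11:82114935-82115234 for Ccl8 and chr11:82101595-82101894 for Ccl12, and run 5′ to 3′ for 300 bases, 250 before the start and 50 from the start on. Capitals mark the TATAAA letters, which end 27 bases before the start of Ccl8 and 26 bases before that of Ccl12.
Ccl8: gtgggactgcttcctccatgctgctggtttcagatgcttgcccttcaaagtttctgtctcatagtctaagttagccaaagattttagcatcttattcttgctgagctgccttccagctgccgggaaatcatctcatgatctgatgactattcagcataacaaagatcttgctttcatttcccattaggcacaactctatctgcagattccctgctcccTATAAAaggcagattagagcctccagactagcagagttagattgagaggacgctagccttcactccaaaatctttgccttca
Ccl12: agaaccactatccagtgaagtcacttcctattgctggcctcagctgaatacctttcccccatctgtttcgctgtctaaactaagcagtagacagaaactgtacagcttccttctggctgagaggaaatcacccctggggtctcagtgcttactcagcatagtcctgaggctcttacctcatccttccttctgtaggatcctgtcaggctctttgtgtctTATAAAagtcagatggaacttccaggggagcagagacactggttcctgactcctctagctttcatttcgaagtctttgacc

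Ccl6 and Ccl9, a pair of related CC ligands, were called with smaller ratios. Ccl6, a Ccr1 ligand of the mouse, was the most abundant CC ligand, at 12.1 FPKM in DKO and 8.91 FPKM in Ctrl ventricles, 1.36-fold higher (q = 0.0261 in the authors' deposited table). Ccl9, a close relative that also binds Ccr1, stood at 3.99 FPKM in DKO and 2.74 FPKM in Ctrl ventricles, 1.46-fold higher (q = 0.00841 in the authors' deposited table). The receptor Ccr1 itself stood at 0.831 FPKM in DKO and 0.687 FPKM in Ctrl ventricles and was not tested. The Ccl6 locus shares its listed span with E230016K23Rik, and reads of overlapping genes cannot be assigned by strand with this library kit.

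Ccl5, made by T cells, NK cells and platelets, had the largest ratio of any tested chemokine gene without passing the threshold. It stood at 2.53 FPKM in DKO and 0.512 FPKM in Ctrl ventricles, a ratio of 4.94 (p = 0.0626, q = 0.345 in the authors' deposited table), rank 17 by fold among all tested loci. The related ligands Ccl3 and Ccl4 lay below the level needed for a test. Ccl3, macrophage inflammatory protein 1 alpha, was listed at 0.409 FPKM in DKO and 0.0779 FPKM in Ctrl ventricles. Ccl4, macrophage inflammatory protein 1 beta, was listed at 0.536 FPKM in DKO and 0.254 FPKM in Ctrl ventricles. All 3 ligands thus had higher listed values in DKO ventricles, with no call.

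Ccr2, the receptor for Ccl2, Ccl7 and Ccl12 on monocytes, was the receptor with the largest called change. It stood at 1.82 FPKM in DKO and 0.607 FPKM in Ctrl ventricles, 3.00-fold higher (q = 0.00158 in the authors' deposited table), rank 35 by fold among all tested loci. Its share of the summed FPKM of all receptor loci was 2.52% in DKO and 0.956% in Ctrl ventricles.

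The CX3C pair, a membrane-tethered ligand and its single receptor, was called at both ends at the q threshold of 0.05. Cx3cl1, fractalkine, which endothelium and other stromal cells display, stood at 6.01 FPKM in DKO and 4.46 FPKM in Ctrl ventricles, 1.35-fold higher (q = 0.0154 in the authors' deposited table). Cx3cr1, carried by patrolling monocytes and many resident macrophages, stood at 1.49 FPKM in DKO and 0.987 FPKM in Ctrl ventricles, 1.51-fold higher (q = 0.0323 in the authors' deposited table). Neither gene was called at q under 0.01, and Cx3cr1 was not called in the authors' deposited table of isoforms (q = 0.0622).

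The homeostatic Cxcl12 axis dominated the levels in both genotypes and was not called. Cxcl12, stromal cell-derived factor 1, stood at 82.7 FPKM in DKO and 75.3 FPKM in Ctrl ventricles, a ratio of 1.10 (q = 0.639 in the authors' deposited table). Cxcr7, the scavenging receptor for Cxcl12 now named Ackr3, stood at 56.4 FPKM in DKO and 51.3 FPKM in Ctrl ventricles, also a ratio of 1.10 (q = 0.521 in the authors' deposited table). Cxcr4, the signaling receptor for Cxcl12, stood at 6.63 FPKM in DKO and 6.60 FPKM in Ctrl ventricles (q = 0.992 in the authors' deposited table). Cxcl12 made up 43.9% of the summed FPKM of all ligand loci in DKO ventricles and a larger part in Ctrl ventricles, and Cxcr7 made up 78.2% of the receptor sum in DKO and 80.8% in Ctrl ventricles. The ligand sum was 188 FPKM in DKO and 151 FPKM in Ctrl ventricles. Without Cxcl12 it was 106 FPKM in DKO and 75.3 FPKM in Ctrl ventricles, a ratio of 1.40.

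The 3 Cxcl12 transcripts kept nearly equal proportions. The 5670-base form held 69.5% of the summed transcript FPKM in DKO and 69.3% in Ctrl ventricles, the 1878-base form 23.9% in DKO and 24.0% in Ctrl ventricles, and the 3173-base form 6.56% in DKO and 6.73% in Ctrl ventricles. Their q-values were 0.730, 0.946 and 0.979 in the authors' deposited table of isoforms.

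The remaining tested CXC ligands gave no call. Cxcl14, a ligand of resting epithelia and stroma, stood at 15.3 FPKM in DKO and 12.8 FPKM in Ctrl ventricles, a ratio of 1.19 (p = 0.0324, q = 0.232 in the authors' deposited table). Cxcl1, a Cxcr2 ligand that draws neutrophils, stood at 6.08 FPKM in DKO and 4.21 FPKM in Ctrl ventricles, a ratio of 1.44 (p = 0.0107, q = 0.108 in the authors' deposited table). Cxcl16, the transmembrane ligand of Cxcr6, stood at 5.85 FPKM in DKO and 4.91 FPKM in Ctrl ventricles (q = 0.461 in the authors' deposited table). Cxcl9, an interferon-induced ligand of Cxcr3, had the lower value in DKO ventricles, 1.57 FPKM beside 1.99 FPKM in Ctrl ventricles, a log2 ratio of -0.34 (q = 0.358 in the authors' deposited table).

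The tested CC ligands of eosinophils, skin, gut and lymph node also gave no call. Ccl11, eotaxin, stood at 5.82 FPKM in DKO and 6.70 FPKM in Ctrl ventricles (log2 ratio -0.20, q = 0.690 in the authors' deposited table). Ccl24, a second eotaxin, stood at 2.17 FPKM in DKO and 1.83 FPKM in Ctrl ventricles (q = 0.760 in the authors' deposited table). Ccl27a, a ligand of Ccr10 known from skin, stood at 5.56 FPKM in DKO and 3.86 FPKM in Ctrl ventricles (q = 0.754 in the authors' deposited table). Of these 3, Ccl11 had its lower value in DKO ventricles and the others their higher value. Ccl25, a ligand of Ccr9 known from thymus and gut, stood at 1.27 FPKM in DKO and 1.07 FPKM in Ctrl ventricles (q = 0.848 in the authors' deposited table). The 2 loci listed as Ccl21c, a Ccr7 ligand of lymphoid tissue, stood at 1.04 and 0.988 FPKM in DKO and 0.883 and 0.978 FPKM in Ctrl ventricles (q = 0.891 and 0.994 in the authors' deposited table). The tested locus that joins Ccl27b with Gm13306 stood at 0.705 FPKM in DKO and 0.981 FPKM in Ctrl ventricles, which is -0.48 on the log2 scale (q = 0.856 in the authors' deposited table). Ccl19, Ccl21c and Ccl27b have near-identical copies on chromosome 4, among which reads may have been split, so their values are uncertain.

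Stricter call rules left between 4 and 8 of these genes. At q under 0.01 there were 4 called higher (Ccl2, Ccl8, Ccl9 and Ccr2) and 0 lower, beside 2.74% higher and 1.58% lower of all tested loci. With a fold of at least 1.3 there were 8, beside 3.6% and 1.71%, and with a fold of at least 1.5 there were 5, with Ccl2, Ccl8, Ccr2 and Cx3cr1 among them, beside 2.13% and 0.659%. Where the higher genotype reached 1 FPKM there were 8, beside 4.3% and 3.07%, and where both reached it there were 5 (Ccl2, Ccl6, Ccl8, Ccl9 and Cx3cl1), beside 3.98% and 3.05%. None was called lower under these rules, which can only remove calls. The minimums of 1.3-fold and of 1 FPKM in the higher genotype removed none, as every called gene already passed both. Ccl2 and Ccl8 were called under every rule. Ccr2 and Cx3cr1 drop out of the last because their Ctrl values lie under 1 FPKM.

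**Figure D2:**
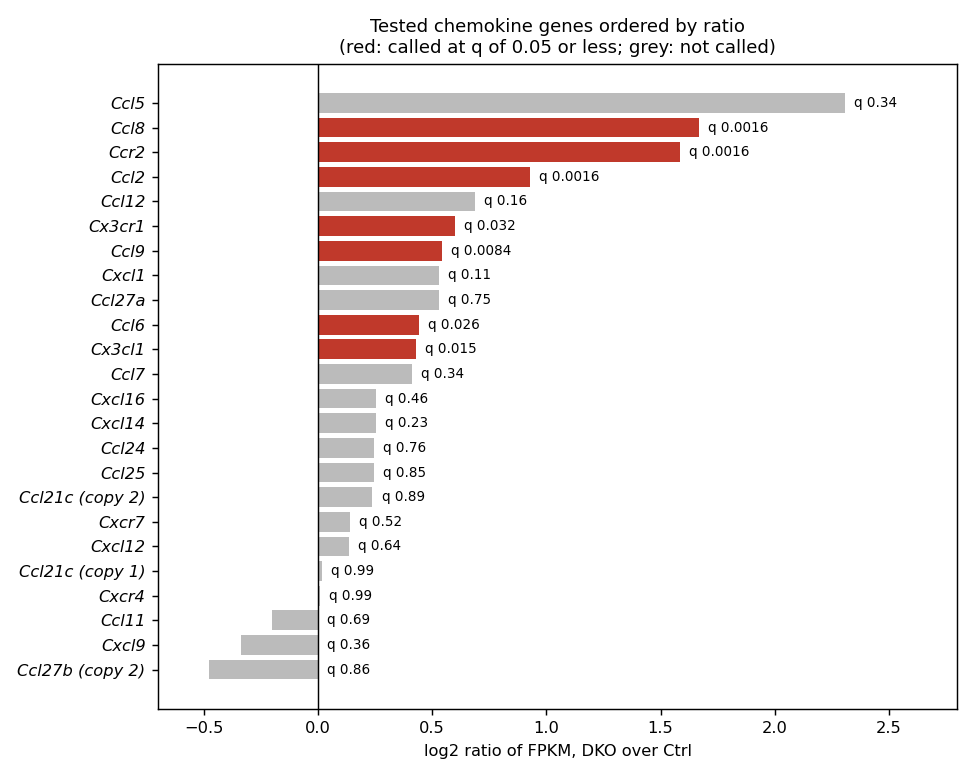
Log2 ratio of FPKM, DKO over Ctrl, for 24 of the 25 tested chemokine genes in order of ratio, with the q-value from the authors' deposited table beside each bar. Red bars are called genes, all above 0, and the uncalled Ccl5 has the largest ratio, while Ccl11, Cxcl9 and 1 Ccl27b locus lie below 0.

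The Cxcl1 and Ccl9 promoters are shown as members whose window holds a match to the NF-kB consensus, and the Ccr2 promoter as the receptor with the largest called change. They are RefSeq sequences on GRCm38.p6 of the same span as above, at chr5:90890995-90891294 on the plus strand for Cxcl1, chr11:83578587-83578886 on the minus strand for Ccl9 and chr9:124101933-124102232 on the plus strand for Ccr2. In Cxcl1 the capitals mark overlapping NF-kB matches on both strands, between 71 and 61 bases before the start. In Ccl9 they mark an NF-kB match 35 to 26 bases before the start, an AP-1 match of the form TGANTCA 53 to 47 bases before it, and TATAAA on one strand or the other. Ccr2 has no capitals because none of the motifs searched is present in its window.
Cxcl1: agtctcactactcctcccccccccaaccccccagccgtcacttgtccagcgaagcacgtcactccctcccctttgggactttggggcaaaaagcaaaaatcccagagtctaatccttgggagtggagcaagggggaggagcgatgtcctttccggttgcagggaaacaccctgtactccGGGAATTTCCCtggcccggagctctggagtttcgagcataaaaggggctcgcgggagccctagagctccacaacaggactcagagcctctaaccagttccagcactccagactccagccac
Ccl9: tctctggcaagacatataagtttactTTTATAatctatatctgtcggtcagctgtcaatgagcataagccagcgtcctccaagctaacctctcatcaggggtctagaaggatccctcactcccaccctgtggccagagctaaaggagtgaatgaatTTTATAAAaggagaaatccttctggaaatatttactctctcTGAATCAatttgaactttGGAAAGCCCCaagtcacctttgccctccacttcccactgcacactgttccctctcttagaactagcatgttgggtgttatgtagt
Ccr2: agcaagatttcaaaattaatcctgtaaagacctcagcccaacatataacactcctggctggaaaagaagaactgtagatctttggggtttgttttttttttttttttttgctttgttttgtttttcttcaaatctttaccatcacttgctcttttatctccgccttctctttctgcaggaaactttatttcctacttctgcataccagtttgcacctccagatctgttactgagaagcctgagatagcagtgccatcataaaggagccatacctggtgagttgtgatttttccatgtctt

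Promoters were found for 40 of the 56 symbols, 47 in all. On either strand, the NF-kB consensus was present in 11 of 47 (23.4%), beside 8.46% of the 32851 promoters in the table. The AP-1 letters TGANTCA were present in 9 of 47 (19.1%) beside 7.81%, the Sox letters AACAAT in 4 of 47 (8.51%) beside 10.7%, and TATAAA, added after the data were seen, in 13 of 47 (27.7%) beside 13.6%. Of the 8 called genes, 6 had a promoter here, with Ccl2 among those without one. Of these 6 promoters, 1 held the NF-kB consensus, 1 the AP-1 letters, 0 the Sox letters and 3 held TATAAA. The NF-kB matches lay in Ccl1, Ccl9, Ccl20, Ccl27a, Cxcl1, Cxcl2, Cxcl3, Cxcl10, Ccr1, Ccr3 and Ccr6. Of these genes only Ccl9, Ccl27a and Cxcl1 were tested, and only Ccl9 was called. A match describes letters and not a binding site.

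The other 35 loci fell below the signal needed for the authors' test, so their values are described with no call. Of these, 23 had the higher value in DKO ventricles, 4 the lower, and 8 were listed at 0 in both genotypes (Ccl1, Ccl20, Ccl26, Ccl28, Cxcl3, Cxcl17, Ccr4 and Cxcr1). Among the 27 listed above 0, DKO was the higher in 85.2%, beside 62.4% of all 6180 untested loci listed above 0. Of the 24 with a ratio, 10 (41.7%) were at least 2 times higher in DKO ventricles and 0 at least 2 times lower, beside 14.3% and 6.97% of all untested loci with a ratio. Taking the higher of the 2 genotypes, the untested locus nearest the test reached 0.924 FPKM and the lowest tested member 0.981 FPKM, both Ccl27b loci.

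Ligands and receptors of dendritic and T cell traffic had low values that were mostly higher in DKO ventricles. Ccl17, a Ccr4 ligand made by dendritic cells, was listed at 0.740 FPKM in DKO and 0.153 FPKM in Ctrl ventricles. Ccl22, the other Ccr4 ligand, was listed at 0.300 FPKM in DKO ventricles and at 0 in Ctrl ventricles. Their receptor Ccr4 was listed at 0 in both genotypes. Ccr7, which guides dendritic and T cells to lymph nodes, was listed at 0.562 FPKM in DKO and 0.206 FPKM in Ctrl ventricles. The Ccr7 ligand Ccl19 was listed at 0.239 and 0.158 FPKM at its 2 loci in DKO ventricles, beside 0.0445 and 0.0956 FPKM in Ctrl ventricles. Every one of these loci above 0 thus had its higher value in DKO ventricles, at a depth that allowed no test. Xcr1, a receptor of cross-presenting dendritic cells, was listed at 0.412 FPKM in DKO and 0.322 FPKM in Ctrl ventricles. Its ligand Xcl1 was listed at 0.272 FPKM in DKO and 0.235 FPKM in Ctrl ventricles.

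Receptors of lymphocytes were likewise low. Cxcr3, the receptor for Cxcl9, Cxcl10 and Cxcl11 on activated T cells, was listed at 0.298 FPKM in DKO and 0.105 FPKM in Ctrl ventricles. Cxcr6, the Cxcl16 receptor of T and NK cells, was listed at 0.492 FPKM in DKO and 0.297 FPKM in Ctrl ventricles. Cxcr5, the B cell receptor for Cxcl13, was listed at 0.220 FPKM in DKO and 0.148 FPKM in Ctrl ventricles. Ccr6, the receptor for Ccl20, was listed at 0.159 FPKM in DKO and 0.0242 FPKM in Ctrl ventricles. All 4 had the higher value in DKO ventricles, whereas Ccr10, the receptor for Ccl27 and Ccl28, had the lower, 0.775 FPKM beside 0.847 FPKM in Ctrl ventricles. The ligand Cxcl10, induced by interferon, was listed at 0.584 FPKM in DKO and 0.404 FPKM in Ctrl ventricles. It lies within the listed span of Art3, as does Cxcl11, and Art3 stood at 216 FPKM in DKO and 245 FPKM in Ctrl ventricles. Cxcl13 was listed at 0.124 FPKM in DKO and 0.0515 FPKM in Ctrl ventricles. Cxcr6 lies within the span of Fyco1, and reads of these overlapping pairs could not be assigned by strand.

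Among the neutrophil-directed genes, Cxcl5 was listed at 0.536 FPKM in DKO and 0.131 FPKM in Ctrl ventricles. Cxcl2 was listed at 0.355 FPKM in DKO and 0.165 FPKM in Ctrl ventricles. Their receptor Cxcr2 was listed at 0.425 FPKM in DKO and 0.357 FPKM in Ctrl ventricles, so all 3 had the higher value in DKO ventricles. The untested Ccl27b loci were listed at 0.924 and 0.811 FPKM in DKO and 0.679 and 0.871 FPKM in Ctrl ventricles. The 5 other loci above 0 (Cxcl11, Cxcl15, Ccr3, Ccr8 and Ccr9) reached at most 0.0766 FPKM. Ccr8, which Ccl8 binds in the mouse, was thus close to 0 while its ligand was called.

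Many chemokine genes lie in clusters, and calls differed among neighbours, whose ratios were not tested against each other. In the monocyte chemoattractant cluster on chromosome 11 (chr11:81849079-81993314, mm9), 2 of 5 tested genes, Ccl2 and Ccl8, were called higher, while Ccl7, Ccl11 and Ccl12 between them were not and Ccl11 had the lower value in DKO ventricles. In the Ccl5 to Ccl4 cluster (chr11:83339281-83478185), 2 of 3 tested genes, Ccl6 and Ccl9, were called and all 5 members had the higher value in DKO ventricles. The 3 genes Ccl22, Cx3cl1 and Ccl17 on chromosome 8 were all higher in value in DKO ventricles, with Cx3cl1 tested and called. The Cxcl5 to Cxcl2 cluster on chromosome 5 (chr5:91188325-91334964) held 1 tested member, Cxcl1, and no call.

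**Figure D3:**
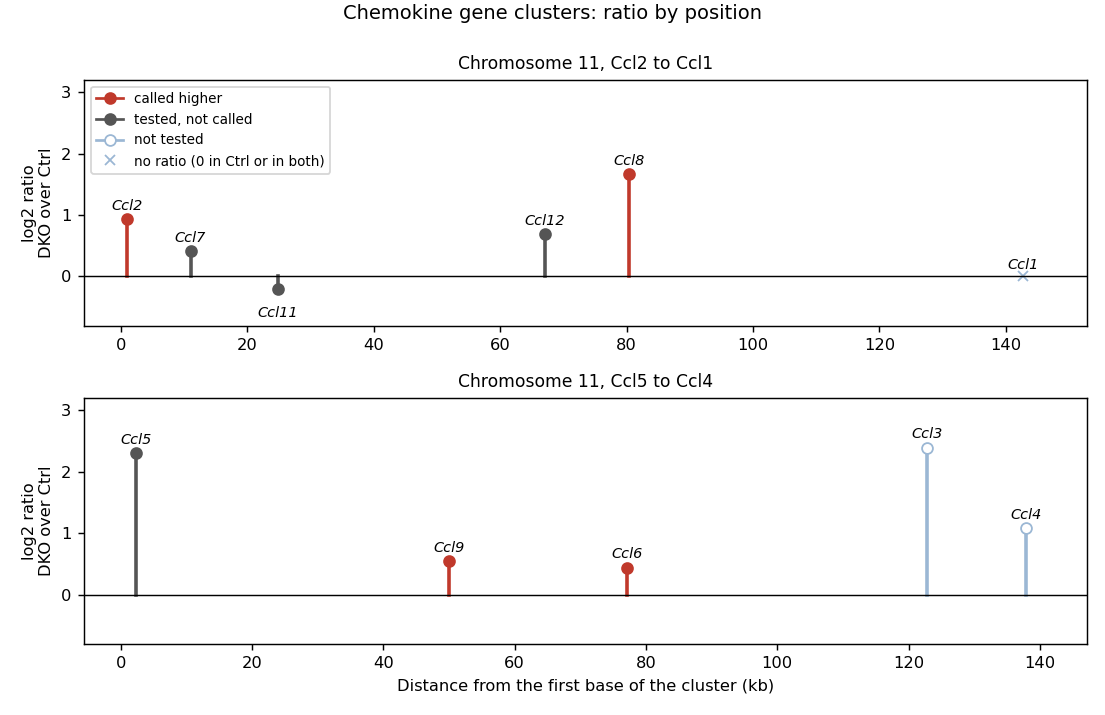
Log2 ratio of FPKM, DKO over Ctrl, by distance in kb from the first base of 2 clusters of CC ligand genes on chromosome 11, with called genes in red, tested but uncalled genes in dark grey and untested genes as open circles. Called genes stand beside uncalled ones in both panels, and Ccl11 lies below 0 between Ccl2 and Ccl8.

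Transcript structure added little for most members, since 48 of 60 loci had a single isoform. Among isoforms, 6 of 25 tested were called higher and 0 lower, beside 1.9% called higher and 1.12% lower of all tested isoforms. Ccl6 (q = 0.0507) and Cx3cr1 (q = 0.0622) were not called in that authors' deposited table. Among start site groups, 8 of 24 tested were called higher and 0 lower, beside 2.95% and 1.99% of all. Among coding sequences, 8 of 26 tested were called higher and 0 lower, beside 2.98% and 1.66% of all. Ccl25 was the one tested gene whose direction turned when coding sequences were summed per gene. Its coding transcript stood at 0.358 FPKM in DKO and 0.592 FPKM in Ctrl ventricles. Its noncoding transcript stood at 0.909 FPKM in DKO and 0.477 FPKM in Ctrl ventricles. Single transcripts or coding sequences of Ccl21c, Ccl27a and the tested Ccl27b locus also ran against the direction of their locus. One Ccl27a coding sequence stood at 1.23 FPKM in DKO and 1.39 FPKM in Ctrl ventricles, with no call. For Ccl27a the main transcript stood at 3.71 FPKM in DKO and 1.79 FPKM in Ctrl ventricles, with no call (q = 0.754 in the authors' deposited table of isoforms), and the locus shares its listed span with Il11ra1.

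Of 63 tested genes of chemokine receptor signaling, 8 (12.7%) were called higher and 1 lower, beside 4.3% and 3.06% of all tested loci, with a median log2 ratio of 0.04. Grk5, a kinase that desensitizes G protein-coupled receptors and is abundant in heart muscle, stood at 24.4 FPKM in DKO and 12.2 FPKM in Ctrl ventricles (q = 0.00158 in the authors' deposited table). Ptk2b, the kinase Pyk2, stood at 3.92 FPKM in DKO and 2.29 FPKM in Ctrl ventricles, also called. Dock2, a Rac activator of leukocytes, stood at 1.19 FPKM in DKO and 0.726 FPKM in Ctrl ventricles and was called. Coro1a, an actin regulator of leukocytes, stood at 8.79 FPKM in DKO and 5.65 FPKM in Ctrl ventricles and was called. Fam65b, which encodes an inhibitor of RhoA and was the 1 gene called lower, stood at 1.94 FPKM in DKO and 2.78 FPKM in Ctrl ventricles.

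Of 52 tested genes upstream of chemokine expression (cytokines, their receptors, Toll-like receptors and NF-kB and Irf factors), 7 (13.5%) were called higher and 0 lower, beside 4.3% and 3.06% of all tested loci, with a median log2 ratio of 0.10. Irf5, an interferon regulatory factor of macrophages, stood at 3.27 FPKM in DKO and 1.56 FPKM in Ctrl ventricles. Il10ra, the interleukin 10 receptor, stood at 3.11 FPKM in DKO and 1.78 FPKM in Ctrl ventricles. Csf1r, the macrophage growth factor receptor and also a marker on the macrophage list, stood at 19.3 FPKM in DKO and 12.4 FPKM in Ctrl ventricles. These 3 were called, as was Irf8, at 3.21 FPKM in DKO and 2.20 FPKM in Ctrl ventricles. Among the cytokine genes of the list, named after their values were seen, Csf1, the ligand of Csf1r, was called, at 19.2 FPKM in DKO and 15.2 FPKM in Ctrl ventricles. Il33, an alarmin of stromal cells, stood at 3.10 FPKM in DKO and 2.25 FPKM in Ctrl ventricles with no call (q = 0.0818 in the authors' deposited table). Il1b and Tnf were not tested. Il1b was listed at 0.949 FPKM in DKO and 0.576 FPKM in Ctrl ventricles, and Tnf at 0.684 FPKM in DKO and 0.796 FPKM in Ctrl ventricles. Of the 12 tested atypical receptors and chemokine-like genes outside the name pattern, 0 were called, with a median log2 ratio of 0.10. The most abundant were Rarres2 (chemerin), at 41.0 FPKM in DKO and 37.8 FPKM in Ctrl ventricles, Mif, at 36.8 FPKM in DKO and 35.1 FPKM in Ctrl ventricles, and Pf4, at 25.7 FPKM in DKO and 22.3 FPKM in Ctrl ventricles.

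Markers of leukocytes and stroma differed in the same samples. For comparison, 4.3% of all tested loci were called higher and 3.06% lower. Of 26 tested monocyte and macrophage markers, 16 were called higher and 0 lower, with a median log2 ratio of 0.53, and their summed level was 713 FPKM in DKO and 538 FPKM in Ctrl ventricles, with none at 0. Lgals3 stood at 5.65 FPKM in DKO and 2.12 FPKM in Ctrl ventricles, and Mpeg1 at 5.75 FPKM in DKO and 2.17 FPKM in Ctrl ventricles, both called. Aif1 and Gpnmb were also called, at ratios of 2.35 and 2.48. Of the 26 tested, 22 had the higher value in DKO ventricles. The others, named after their values were seen, were not called. They were Timd4, Ly6c2, Lyve1 and Ly6c1, at ratios of 0.778, 0.834, 0.891 and 0.974. Of 8 tested dendritic cell markers, 5 were called higher, all of them class II genes or their partners, namely H2-Ab1, H2-Aa and H2-Eb1 at ratios of 1.97, 1.87 and 1.82, their regulator Ciita at 1.61 and the invariant chain Cd74 at 1.56. The 3 other tested markers, named with Cd74 after their values were seen, were not called, at ratios of 1.01 for Zbtb46 (q = 0.986), 0.998 for Clec9a (q = 0.997) and 1.37 for Cd83 (q = 0.0710) in the authors' deposited table. All 7 untested markers of the dendritic list had the higher value in DKO ventricles, beside 62.4% of all untested loci listed above 0. The dendritic list summed to 369 FPKM in DKO and 218 FPKM in Ctrl ventricles. That list also holds Ccr7 and Xcr1, and macrophages and B cells express class II genes too. Of 14 fibroblast markers, 8 were called higher, Postn at 2.18-fold, Mfap5 at 1.67-fold, Col3a1 at 1.51-fold and Col1a2 at 1.49-fold among them, with a sum of 897 FPKM in DKO and 686 FPKM in Ctrl ventricles. The part of these marker differences in the chemokine results was not tested.

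Lymphocyte and neutrophil markers were near the limit of the test. Of 26 T, B and NK cell markers 1 was tested, Cd79b, at 1.42 FPKM in DKO and 0.752 FPKM in Ctrl ventricles with no call. Of the 25 untested, 24 had the higher value in DKO ventricles, beside 62.4% of all untested loci listed above 0. The summed level of the 26 markers was 9.12 FPKM in DKO and 5.21 FPKM in Ctrl ventricles. Of 13 neutrophil markers 2 were tested, S100a8 and S100a9, with 0 calls and ratios of 1.47 and 0.891. Of the 11 untested neutrophil markers, 6 had the higher value in DKO ventricles, beside the same 62.4%. The neutrophil list summed to 7.22 FPKM in DKO and 6.14 FPKM in Ctrl ventricles. Mast cell, basophil and eosinophil markers, of which Mcpt4, Kit and Cma1 had the highest mean of both genotypes, had 0 calls among 5 tested and summed to 8.81 FPKM in DKO and 8.57 FPKM in Ctrl ventricles, with the eosinophil genes Epx and Prg2 at 0 in both. The endothelial list (Egfl7, Eng and Cdh5 highest) had 0 calls among 16 and a median log2 ratio of -0.07. The defining genes of cardiomyocytes were present at high levels in both genotypes, Myl2 at 17014 FPKM in DKO and 20639 FPKM in Ctrl ventricles, with Mb and Actc1 next. That list had 0 calls among 12 and a median of -0.21. Of these 12 genes, 0 had the higher value in DKO ventricles, beside 48.9% of all tested loci. The cardiomyocyte list summed to 80988 FPKM in DKO and 95188 FPKM in Ctrl ventricles. The red cell and platelet list had 0 calls among 7 and a median of 0.04.

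**Figure D4:**
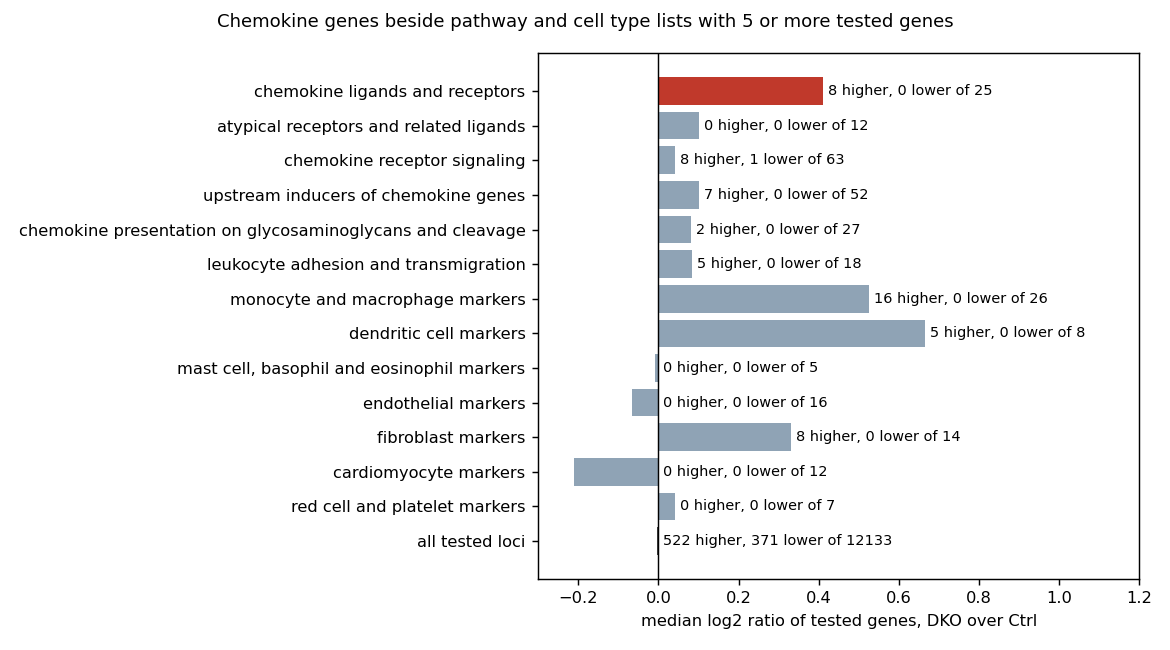
Median log2 ratio of FPKM, DKO over Ctrl, of the tested chemokine genes (red, 0.41), of pathway and cell type lists with 5 or more tested genes (grey), and of all tested loci (black), with the number called in each direction beside each bar. Dendritic and macrophage markers stand above the chemokine genes, fibroblast markers just below them, and the signaling and inducer lists near 0.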

How the data were processed

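RNA of 4 DKO and 4 Ctrl ventricle samples was sequenced single-end. Per the submitters' processing notes, the authors used TopHat2 2.0.9, Cufflinks 2.1.1 and Cuffdiff 2.1.1 with the mouse build mm9, and their settings and the gene annotation used are not stated in the labels or headers. Each of the 5 deposited tables holds 1 FPKM per genotype, per the file headers, pooled over its samples. The authors' p-values and q-values are Cuffdiff's, per the file headers, and the q-values equal Benjamini-Hochberg adjustment over the 12133 tested loci to within 5.18e-07. The smallest p is 5e-05, shared by 385 called genes, so q does not rank those. The deposited log2 fold change sets Ctrl over DKO, per the file headers, so each ratio was recomputed from the deposited FPKM as DKO over Ctrl. The test statistic deposited by the authors as a score was not used for any result.

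No test was computed here: calls are the authors' q of at most 0.05 with test status OK, adjusted by them over all tested loci. Pooled values allow no interval, no value per sample and no depth. Listed starts count from 0, as 7067 locus widths equal the RefSeq length that way and 446 otherwise, and positions are printed counting from 1. Each tested member is named except 1, which enters the counts and medians but is not reported here, as is each untested one at 0.1 FPKM or more, and up to 4 called genes per list by size of ratio, or the 3 most abundant where none was called. The members, the 14 pathway and cell type lists and their rules were chosen with earlier results of these data known. Alternatives varied the q threshold, the fold and FPKM minimums, the pseudocount, the table and the scaling. Counting was checked on simulated data. Python 3.11.15, pandas 2.3.3, numpy 2.4.6, statsmodels 0.14.6 and matplotlib 3.10.9 were used.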

Additional observations from a re-analysis of the deposited data

How the results depend on the processing

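The count of 8 chemokine genes called higher fell to 4 at q under 0.01 (Ccl2, Ccl8, Ccl9 and Ccr2), to 5 at a fold of at least 1.5 (Ccl2, Ccl8, Ccr2 and Cx3cr1 among them) and to 5 where both genotypes reach 1 FPKM (Ccl2, Ccl6, Ccl8, Ccl9 and Cx3cl1), and was 6 in the isoform table. It was 8 in each other setting run, including 1 chosen after seeing the data, without the multicopy loci of Ccl19, Ccl21c and Ccl27b. Among these, only the start site and coding sequence tables, with q-values of their own, could have moved the count. The lowest fold of a called gene was 1.35, and each reached 1 FPKM in the higher genotype. None lay at a locus with several copies or gene names, and rescaling kept the authors' calls. The count called lower was 0 in all. The median log2 ratio of 0.41 ranged between 0.33 and 0.53. Per gene, 122 values kept direction and call, 2 lost the call (main isoform, Ccl6 at 0.44 and Cx3cr1 at 0.60) and 1 turned: Ccl25 had a log2 ratio of -0.73 from its coding sequence alone. Much of this count was fixed in advance. A pseudocount cannot turn a direction, and only the main isoform and coding sequence settings had q-values of their own. With a single isoform at 48 of 60 loci, most isoform and coding sequence values repeat the gene value. With log2(FPKM + 1), 10 of 25 values moved by over 1.5 times, including those of Ccr2 (0.81 beside 1.58), Cx3cr1 (0.33 beside 0.60) and Ccl5 (1.22 beside 2.31). With the main isoform 5 did, to 2.67 and 1.31 for Ccl21c, 0.93 for Ccl25, 1.05 for Ccl27a and -1.31 for Ccl27b. At q under 0.01 the signaling list had 5 higher and 0 lower (8 and 1 as reported), the inducer list 3 (7), the glycosaminoglycan list 1 (2) and the adhesion list 3 (5). At a fold of at least 1.3 the glycosaminoglycan list had 1 (2) and the fibroblast list 5 (8). The stricter thresholds lower counts by construction. No paired analysis was possible because the tables hold 1 pooled value per genotype, and for the same reason no sample could be left out in turn. Depth, and so the precision of low FPKM, is unknown.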

Other observations

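Genes that hold leukocytes to vessels differed by member. Of 18 tested adhesion and transmigration genes, 5 (27.8%) were called higher in DKO ventricles and 0 lower, beside 4.3% and 3.06% of all tested loci, with a median log2 ratio of 0.08. The called genes with the largest ratios encode proteins that leukocytes can carry, but which cells gave their RNA here was not tested. Itgam, the alpha chain of the integrin Mac-1, stood at 3.09 FPKM in DKO and 1.87 FPKM in Ctrl ventricles. Itgb2, its beta chain, stood at 3.72 FPKM in DKO and 2.40 FPKM in Ctrl ventricles. Cd44, a hyaluronan receptor, stood at 4.55 FPKM in DKO and 2.84 FPKM in Ctrl ventricles, and Selplg, the P-selectin ligand, at 2.14 FPKM in DKO and 1.35 FPKM in Ctrl ventricles. The fifth, Vcam1, an adhesion molecule of endothelium named after its values were seen, stood at 8.17 FPKM in DKO and 6.31 FPKM in Ctrl ventricles.

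Of 27 tested genes for glycosaminoglycans that present chemokines and for proteases that cleave them, 2 (7.41%) were called higher and 0 lower, a share near the 4.3% of all tested loci called higher, with a median log2 ratio of 0.08. Mmp2, a gelatinase known to cleave chemokines such as Cxcl12, stood at 28.6 FPKM in DKO and 21.7 FPKM in Ctrl ventricles (q = 0.00158 in the authors' deposited table). Sulf1, which removes sulfate from heparan sulfate, stood at 7.81 FPKM in DKO and 6.10 FPKM in Ctrl ventricles (q = 0.0241 in the authors' deposited table).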
